A study of Mus musculus with 6 samples.

Results

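The 38 genes described here belong to the integrated stress response and the unfolded protein response, and were chosen by symbol. All 38 matched a row of the count table, which holds 47729 genes. They form 2 arms. The Atf4 arm has 18 genes (the transcription factor genes around Atf4, the feedback genes and the amino acid and one-carbon enzymes that ATF4 activates), and the endoplasmic reticulum (ER) arm has 20 (stress sensors, Xbp1, chaperones, disulfide isomerases and degradation factors). RNA came from whole cell extract of mouse bone marrow and was sequenced in 6 libraries, 3 of mice without the SNORD113-114 cluster of box C/D small nucleolar RNAs (labelled Mutant, here cluster KO) and 3 of wildtype mice. Each genotype is given with 3 mice in the series' design text. The sources used here do not give strain, age, sex, the deletion allele or any cell sort, nor do they tie a library to its mouse by name, and the p-values measure the spread between these libraries. Fewer cells of a type and less RNA per cell cannot be told apart in such samples.

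The libraries held 17663369 to 23459168 counts on genes. Poly(A) libraries could not check the deletion: the host transcript Rian had 9, 6 and 3 raw counts in cluster KO and 11, 5 and 38 in wildtype libraries, and the 23 annotated snoRNA genes between Rian and Mirg had 1 count in all. Among markers of the labelled tissue, the stem and progenitor gene Kit stood at 309, 286 and 243 CPM (counts scaled to a common library size with TMM factors, as counts per M) in cluster KO and at 349, 349.6 and 363 CPM in wildtype, and fell (log2 fold change -0.34, SE 0.11, edgeR adjusted p = 0.0467), and the 4 adult globin genes together took 0.0217 to 0.0859% of the counts. B lineage markers were higher in cluster KO, where 12 genes summed to 2151 to 2324 CPM, against 726 to 791 CPM in wildtype. Primary granule genes of neutrophil precursors summed to 1517, 138 and 543 CPM in cluster KO 1, 2 and 3 and to 378 to 832 CPM in wildtype. Among all tested genes 15.9% were higher and 12.1% lower (edgeR adjusted p under 0.05). Of 9 late neutrophil markers 4 were higher and 0 lower (sums of 10634 to 19610 CPM in cluster KO and 5914 to 12067 CPM in wildtype). Of 10 erythroid markers 0 were higher and 5 lower, namely the 4 globin genes and Epor. Of 8 megakaryocyte markers 1 was higher and 3 lower (sums of 284 to 291 CPM against 427 to 527 CPM), and of 10 stem and progenitor markers 4 were higher and 2 lower (1301 to 1311 CPM against 1154 to 1187 CPM). No marker list had a gene at 0 in all libraries, and the part of cell makeup in the results was not tested beyond these values.

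Several kinds of stress converge on the translation factor eIF2. Its phosphorylation lowers general translation while the Atf4 mRNA is translated more, and ATF4 protein then activates genes of amino acid supply. Within the ER, unfolded proteins activate 3 sensors: PERK (encoded by Eif2ak3), which phosphorylates eIF2, IRE1 (Ern1), which splices the Xbp1 mRNA, and ATF6, which is cut to release a transcription factor. XBP1 and ATF6 activate chaperone genes through the ER stress response element (ERSE) in their promoters. Blood stem cells are known for low rates of protein synthesis, and antibody-secreting B cells for their need of Xbp1. Counts per gene show mRNA only: eIF2 phosphorylation, Xbp1 splicing and ATF6 cleavage were not analysed here.

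The elements that link these genes to their activators can be read in the promoters. RefSeq windows (GRCm38.p6, 250 bases before to 50 after the start) were found for 34 of the 38 genes, and not for Atf6, Cth, Manf and Ppp1r15b. The ERSE, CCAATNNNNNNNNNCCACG on either strand, was present in 7 of the 18 ER arm genes with a window (38.9%) and in 0 of 16 of the Atf4 arm, against 0.137% of the 27025 genes in the promoter table. The sequences below are written 5′ to 3′ on the gene's strand, with the match in capitals, and are shown because these members share the element and yet differ in the counts. Calr and Creld2, and the second match of Hsp90b1, carry it on the opposite strand, where it reads CGTGG to ATTGG.
Hspa5 (chr2:34772020-34772048, plus strand, position -65): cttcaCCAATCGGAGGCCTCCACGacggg
Pdia6 (chr12:17266486-17266514, plus strand, position -98): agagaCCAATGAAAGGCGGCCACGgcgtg
Calr (chr8:84847070-84847098, minus strand, position -162): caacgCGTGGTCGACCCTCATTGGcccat
Canx (chr11:50325795-50325823, minus strand, position -145): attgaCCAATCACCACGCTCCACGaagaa
Creld2 (chr15:88819515-88819543, plus strand, position -126): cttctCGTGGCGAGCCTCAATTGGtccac
Dnajc3 (chr14:118937822-118937850, plus strand, position -105): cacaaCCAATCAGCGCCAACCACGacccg
Hsp90b1 (chr10:86705633-86705661, minus strand, position -212): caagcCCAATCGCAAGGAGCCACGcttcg
Hsp90b1 second match (chr10:86705528-86705556, minus strand, position -107): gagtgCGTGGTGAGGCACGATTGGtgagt
Positions are those of the leftmost base of the match, counted from the transcription start.

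The composite element of C/EBP and ATF proteins, TGATGNAA on either strand, was present in Asns, Chac1, Nupr1, Trib3 and Vldlr, 5 of 16 Atf4 arm genes (31.2%), and in 1 of 18 ER arm genes (5.56%), against 4.51% of all genes in the table. Trib3 carries its match after the transcription start, at position 15. The ER arm gene is Herpud1, which also was the 1 member with the short ERSE-II form (ATTGG and CCACG with 1 base of any kind between them, either strand), found in 0.0444% of all genes. Its promoter stretch is shown because it holds an element of each arm. The UPRE core, TGACGTGG, was found in 0 members and in 0.714% of all genes. The ERSE forms and the UPRE core share the letters CCACG or their complement, but no stretch of a member matched more than 1 of them. A match describes letters in the window and does not show binding.
Asns (chr6:7693220-7693237, minus strand, position -23): ccacaTGATGAAActtcc
Chac1 (chr2:119351044-119351061, plus strand, position -193): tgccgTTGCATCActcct
Nupr1 (chr7:126625568-126625585, minus strand, position -110): ccagaTTGCATCAgacag
Vldlr (chr19:27216815-27216832, plus strand, position -200): aatagTTGCATCAgcgct
Herpud1 (chr8:94386305-94386399, plus strand, from position -124 to -30, TTGCATCA and the ERSE-II in capitals): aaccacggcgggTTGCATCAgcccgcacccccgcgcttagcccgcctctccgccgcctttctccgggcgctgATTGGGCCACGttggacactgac

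The comparison asks which of these genes differ in marrow RNA once the snoRNA cluster is lost. Both arms were split: 4 of 7 metabolic enzyme genes, the 4 listed disulfide isomerase genes and Xbp1 rose, Atf4 and Ddit3 did not pass the test, and 2 of the 3 ER stress sensors fell. Of 37 genes that passed the low-count filter, 13 rose and 6 fell with loss of the cluster by edgeR's quasi-likelihood test, adjusted over 15686 genes (Benjamini-Hochberg), that is 51.4%, where 27.9% of all tested genes were called, 15.9% higher and 12.1% lower. The Atf4 arm had 6 higher and 2 lower of 17 tested, with a median log2 fold change of 0.07, and the ER arm 7 higher and 4 lower of 20, with a median of 0.21, beside a median of 0.00 over all tested genes. The groups' CPM did not overlap in 21 of the 37 genes, and in 46.0% of all tested genes. Of all calls 56.8% were higher in cluster KO. With upper-quartile factors that share was 46.6% and the median of all tested genes moved to -0.10.

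Of the 6 regulators of the Atf4 arm 1 was higher (Trib3), 1 was lower (Atf5) and 4 did not pass. That is 33.3% called, against 27.9% of all tested genes. Atf4 itself was at 158, 161 and 174 CPM in cluster KO and at 158, 155 and 156 CPM in wildtype libraries. Its groups overlapped, with a log2 fold change of 0.07 (SE 0.10, edgeR adjusted p = 0.644). The sign flipped to -0.036 with upper-quartile factors and to -0.23 after length and GC correction. Ddit3, which encodes the pro-apoptotic factor CHOP, was at 56.5, 53.9 and 55.7 CPM against 57.0, 63.1 and 64.9 CPM (-0.16, SE 0.13, adjusted p = 0.382). All cluster KO values of Ddit3 lay under the wildtype values, by little, and the gene did not pass the test. Its exons overlap those of Mars, a tRNA synthetase gene on the opposite strand that rose (0.91, adjusted p = 0.0226), and reads of overlapping genes cannot be assigned by strand in these libraries.

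Trib3, a pseudokinase gene that ATF4 and CHOP induce and that restrains ATF4, rose. It was at 9.46, 9.72 and 12.3 CPM in cluster KO and at 4.57, 4.93 and 4.20 CPM in wildtype libraries, a log2 fold change of 1.20 (SE 0.24, edgeR adjusted p = 0.00625). Every cluster KO library lay above every wildtype library, and the call held in all 13 alternatives, between 0.94 and 1.26. Atf5, a transcription factor gene translated under the same control as Atf4, fell from 1.36, 1.08 and 1.02 CPM in wildtype to 0.457, 0.126 and 0.372 CPM (-1.85, SE 0.62, adjusted p = 0.0485). That is 30, 19 and 20 raw counts against 10, 3 and 8, near the limit of 3 counts that a count of 0 allows at 95% confidence. Its exons overlap those of Nup62, at 90.8 CPM in wildtype and 71.8 CPM in cluster KO on average. The Atf5 call was lost without cluster KO 2 (adjusted p = 0.173), cluster KO 3 (0.119), wildtype 1 (0.144), wildtype 2 (0.114) or wildtype 3 (0.112), with no filter on low counts (0.0941) and with the replicate block (0.0929). Cebpg, a partner of ATF4 on DNA, had 50.9 to 59.2 CPM in cluster KO and 59.2 to 65.5 CPM in wildtype (-0.15, SE 0.13, adjusted p = 0.412). Nupr1, a small stress-induced chromatin protein gene, was at 30.2, 20.1 and 12.96 CPM against 20.7, 20.7 and 18.8 CPM, with wildtype inside the range of cluster KO (0.07, SE 0.27, adjusted p = 0.864).

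**Figure D1:**
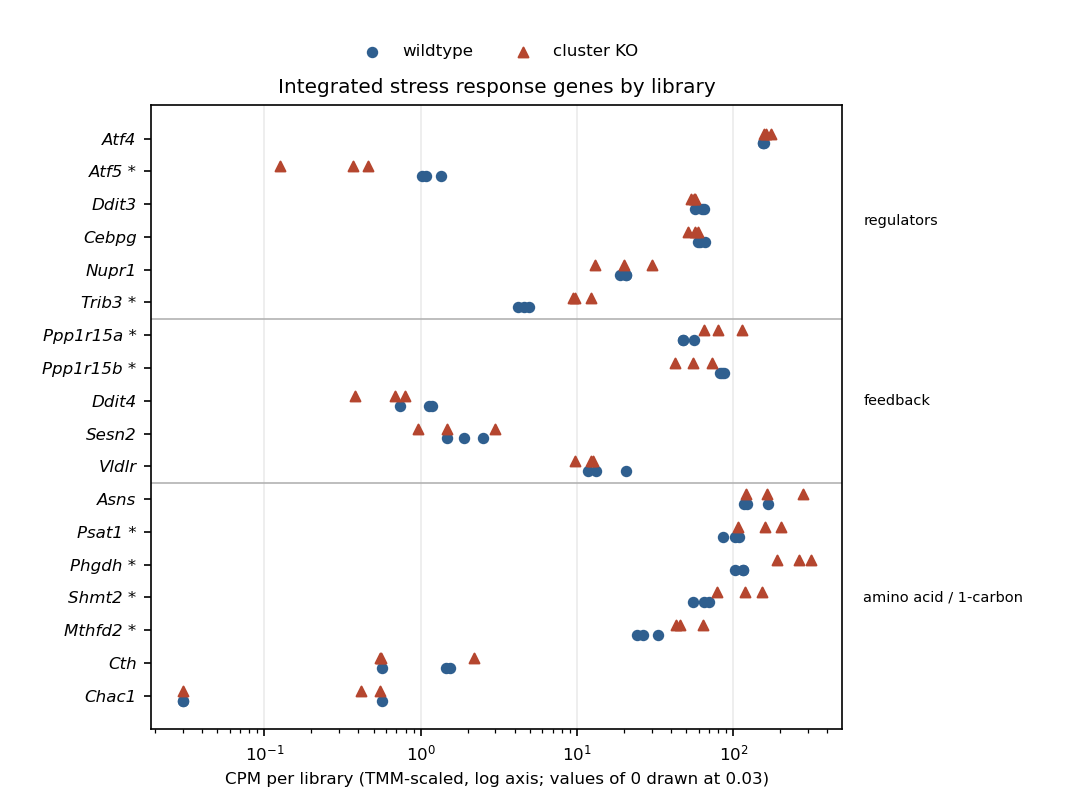
Level of each Atf4 arm gene in CPM on a log axis, with 3 cluster KO libraries (triangles) and 3 wildtype libraries (circles) per gene. An asterisk marks genes past the threshold. Trib3, Phgdh, Shmt2 and Mthfd2 have all cluster KO libraries to the right of wildtype, Atf5 and Ppp1r15b to the left, and Atf4 overlaps.

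Of the feedback genes, the 2 subunits that direct protein phosphatase 1 to eIF2 went in opposite directions. Ppp1r15a, the stress-induced subunit GADD34, was at 64.6, 80.1 and 114 CPM in cluster KO and at 47.8, 47.3 and 56.3 CPM in wildtype libraries (log2 fold change 0.77, SE 0.20, edgeR adjusted p = 0.018). Ppp1r15b, the constitutive subunit CReP, was at 73.6, 55.4 and 42.6 CPM against 85.0, 82.1 and 87.001 CPM (-0.57, SE 0.18, adjusted p = 0.0436). Neither gene's groups overlapped. Cluster KO 3 was the cluster KO library with the highest Ppp1r15a and the lowest Ppp1r15b. Ppp1r15a missed the threshold without cluster KO 2 (adjusted p = 0.0513), wildtype 1 (0.0604) or wildtype 2 (0.0753). Ppp1r15b missed it without cluster KO 2 (0.14), cluster KO 3 (0.0863), wildtype 1 (0.0997), wildtype 2 (0.105) or wildtype 3 (0.123), and fell to -0.29 (adjusted p = 0.157) after length and GC correction. With the replicate number as a block it was at -0.60 (0.0756). Its transcripts share 640 bases with those of Gm26616, a gene at 1.29 CPM in cluster KO and 1.31 CPM in wildtype that overlaps it. Ddit4 and Sesn2, which restrain mTORC1, were at 0.379 to 1.18 CPM and 0.959 to 2.97 CPM over all libraries and did not pass (-0.72 and -0.12, adjusted p = 0.354 and 0.875). Vldlr, a lipoprotein receptor gene, had 9.66 to 12.7 CPM in cluster KO and 11.8 to 20.6 CPM in wildtype (-0.39, adjusted p = 0.264).

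Of 6 tested metabolic genes 4 were higher (Phgdh, Psat1, Shmt2 and Mthfd2) and 0 lower, with a median log2 fold change of 0.76. The called share was 66.7%, where 27.9% of all tested genes were called and 15.9% were higher. Psph, the last enzyme of serine synthesis, is not a member, was picked after its values were seen and did not pass (0.31, SE 0.13, adjusted p = 0.111). Phgdh, the entry enzyme of serine synthesis, was at 191, 262 and 314 CPM in cluster KO and at 115, 116 and 102 CPM in wildtype libraries (1.20, SE 0.17, edgeR adjusted p = 0.00248). The Phgdh call held in all 13 alternatives, from 0.91 to 1.36. Transcripts of 6 other genes in the table, such as Gm7901, match Phgdh at 95% identity or more over at least 200 bases, so its count is uncertain where reads could align to a copy.

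Psat1, the next enzyme of serine synthesis, was at 107, 158 and 202 CPM against 108, 103 and 86.3 CPM (0.65, SE 0.21, edgeR adjusted p = 0.039). Cluster KO 1 lay inside the wildtype range for Psat1. That call was lost without cluster KO 2 (adjusted p = 0.11), cluster KO 3 (0.122), wildtype 1 (0.0687), wildtype 2 (0.101) or wildtype 3 (0.144). It was also lost with limma voom (0.0541), with the replicate block (0.111) and with length and GC correction (0.055). Without cluster KO 3 the log2 fold change was 0.42.

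Shmt2, which passes the carbon of serine to mitochondrial folate, was at 78.9, 119 and 153 CPM in cluster KO and at 64.5, 70.3 and 55.1 CPM in wildtype libraries (0.89, SE 0.21, edgeR adjusted p = 0.0143). Mthfd2, the folate enzyme after it, was at 43.0, 45.6 and 64.0 CPM against 26.3, 24.3 and 33.1 CPM (0.86, SE 0.19, adjusted p = 0.0104). For both enzymes the groups stood apart. Shmt2 missed the threshold without cluster KO 2 (0.0548) or wildtype 3 (0.0687) and with the replicate block (0.0505), and Mthfd2 without wildtype 2 (0.052). Asns, the asparagine synthetase and a classical ATF4 target, was at 120.1, 163 and 281 CPM against 166, 118 and 121 CPM. Its libraries overlapped (0.47, SE 0.27, adjusted p = 0.213), and it passed without cluster KO 1 (0.70, adjusted p = 0.0317). Cth, the last enzyme of cysteine synthesis, was at 0.548 to 2.19 CPM over the 6 libraries and did not pass (-0.11, adjusted p = 0.92). Chac1, a glutathione-degrading enzyme, had 12, 0 and 9 raw counts in cluster KO and 0, 10 and 0 in wildtype libraries and was not tested.

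Of the 3 ER stress sensors 2 were lower, while the downstream factor Xbp1 was higher. Among all tested genes 12.1% were lower and 15.9% higher. Ern1 was at 16.0, 7.45 and 10.2 CPM in cluster KO and at 19.1, 18.4 and 21.3 CPM in wildtype libraries (log2 fold change -0.80, SE 0.27, edgeR adjusted p = 0.0466). Atf6 was at 16.9, 14.2 and 17.3 CPM against 25.5, 25.4 and 31.4 CPM (-0.77, SE 0.17, adjusted p = 0.0109). Eif2ak3 was at 15.03, 11.8 and 8.78 CPM against 14.1, 11.4 and 16.96 CPM (-0.25, SE 0.25, adjusted p = 0.479). Ern1 and Atf6 lay lower in every cluster KO library than in any wildtype library, while Eif2ak3 overlapped. The Ern1 call was lost without cluster KO 2 (-0.58, adjusted p = 0.158), cluster KO 3 (0.117), wildtype 1 (0.0957), wildtype 2 (0.0987) or wildtype 3 (0.141), and with the replicate block (0.0636). The Atf6 call was lost without cluster KO 2 (0.0589) or wildtype 3 (0.0516) and with length and GC correction (-0.43, adjusted p = 0.0925).

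Xbp1 was at 149, 203 and 225 CPM in cluster KO and at 103, 105 and 77.4 CPM in wildtype libraries. It rose by 1.01 on the log2 scale (SE 0.18, edgeR adjusted p = 0.00422), with no overlap, and held in all 13 alternatives, from 0.81 to 1.16. Of the 12 B lineage markers 8 rose and 0 fell, and Mzb1, an ER cochaperone gene of B lineage and plasma cells, stood at 140.0, 134 and 121 CPM in cluster KO, with wildtype at 39.4, 46.2 and 42.6 CPM (1.63, SE 0.13, adjusted p = 1.9e-04). Among all tested genes 15.9% rose and 12.1% fell. Of the 8 plasma cell markers that are neither members nor on the other lists, 3 rose, 0 fell and 1 was not tested. Their sum was 432, 3414 and 1034 CPM in cluster KO, with wildtype inside that range at 1707 to 1831 CPM. The part of these cells in the rise of Xbp1 was not tested.

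Of the 9 lumenal and membrane chaperone genes 1 was higher, 1 was lower and 7 did not pass. That is 22.2% called, against 27.9% of all tested genes. Calr, calreticulin of the ER lumen, was at 433, 469 and 571 CPM in cluster KO and at 371, 357 and 322 CPM in wildtype libraries (log2 fold change 0.49, SE 0.12, edgeR adjusted p = 0.0164). Canx, its membrane-bound relative calnexin, was at 650.3, 565 and 544 CPM against 850.1, 917 and 999.95 CPM (-0.65, SE 0.11, adjusted p = 0.00345). These lectin chaperones bind the same class of glycoproteins, and their libraries separated in opposite directions. Canx held in all 13 alternatives, from -0.75 to -0.44. Calr was lost without cluster KO 2 (adjusted p = 0.0528), wildtype 2 (0.0639) or wildtype 3 (0.0704) and with the replicate block (0.0751), and was at 0.32 (adjusted p = 0.0303) after length and GC correction.

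Hspa5, the central ER chaperone BiP and a standard readout of ER stress, was at 411, 438 and 609 CPM in cluster KO and at 377, 424 and 359 CPM in wildtype libraries. Cluster KO 3 stood above the rest and the others overlapped (log2 fold change 0.33, SE 0.15, edgeR adjusted p = 0.126). It passed without cluster KO 1 (0.43, adjusted p = 0.0377). Hsp90b1, the ER member of the HSP90 family, had 399 to 436 CPM in cluster KO and 433 to 454 CPM in wildtype and did not pass (-0.10, SE 0.09, adjusted p = 0.443; -0.29, adjusted p = 0.0291, with length and GC correction). Manf, a secreted ER stress factor, was at 178, 158 and 153 CPM in cluster KO and at 208, 220.2 and 187 CPM in wildtype libraries. Its groups did not overlap, at -0.33 (SE 0.12, adjusted p = 0.0559). The exons of Manf overlap those of Rbm15b, at 36.4 CPM in wildtype and 31.4 CPM in cluster KO on average. They also overlap those of Dcaf1 (50.8 and 40.0 CPM) and 4930524O07Rik (0.740 and 0.572 CPM). Manf passed with upper-quartile factors (adjusted p = 0.0289), with DESeq2 (0.0387) and without cluster KO 1 (0.0196). Sdf2l1, a partner of BiP, had 63.2 to 80.9 CPM in cluster KO and 35.3 to 64.8 CPM in wildtype (0.50, adjusted p = 0.0992) and passed without wildtype 2 (0.74, adjusted p = 0.0447). In the BiP cochaperone genes and Creld2 the groups overlapped: Dnajb9 had 26.4 to 38.8 CPM over all libraries, Dnajc3 101 to 139 CPM and Creld2 99.8 to 136 CPM. The BiP cochaperones Dnajb9 (-0.01) and Dnajc3 (0.11) and the disulfide isomerase partner Creld2 (0.15) had adjusted p of 0.963, 0.569 and 0.396.

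**Figure D2:**
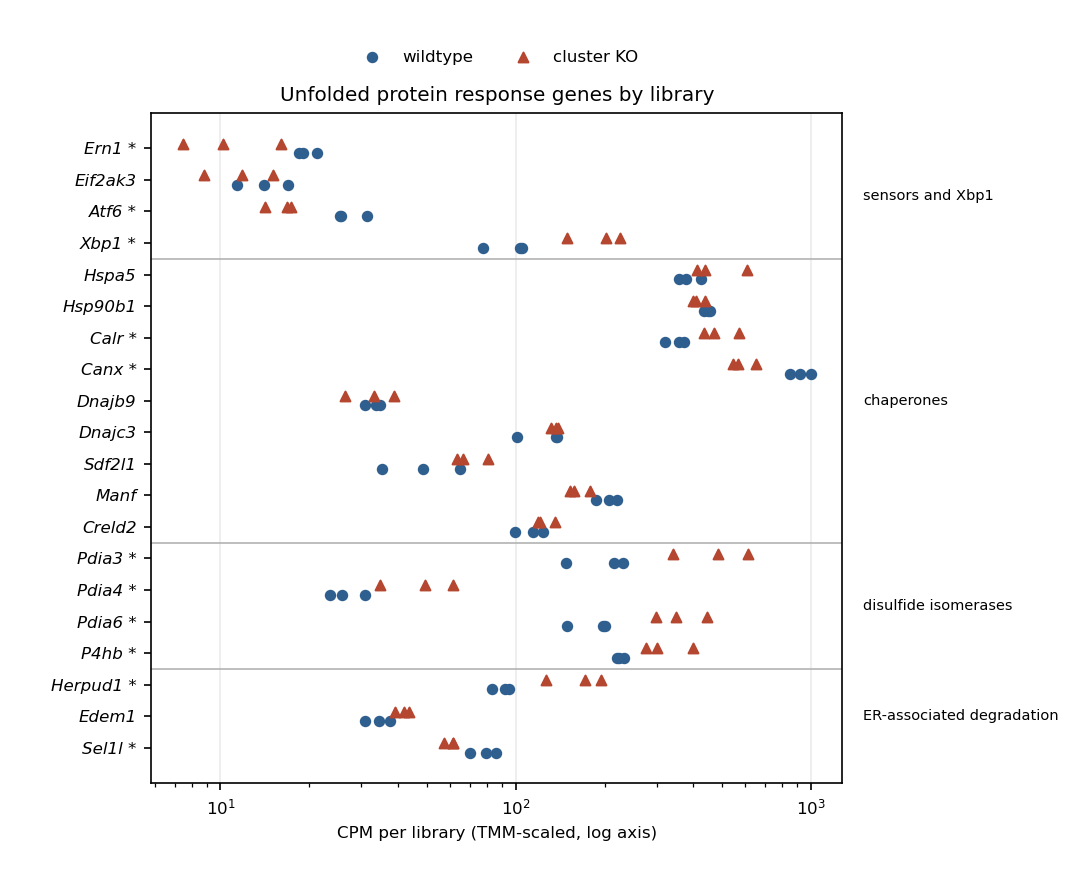
Level of each ER arm gene in CPM on a log axis, with 3 cluster KO libraries (triangles) and 3 wildtype libraries (circles) per gene. An asterisk marks genes past the threshold. The 4 disulfide isomerases and Xbp1 lie to the right in cluster KO, Ern1, Atf6 and Canx to the left, and Hspa5 overlaps.

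The 4 protein disulfide isomerase genes among the members rose, with a median log2 fold change of 0.93 and no overlap in any. Among all tested genes 15.9% were higher, and in 46.0% the groups did not overlap. Pdia5, an isomerase gene outside the members, overlapped and did not pass (-0.13, SE 0.19, edgeR adjusted p = 0.644). Of related genes outside the members, Erp44 (0.67, SE 0.15, adjusted p = 0.011) and Txndc5 (0.51, SE 0.17, adjusted p = 0.0434) rose. Dnajc10 (0.12), Txndc11 (-0.03) and Erp29 (-0.17) did not pass. All of these were picked after their values were seen. Pdia3, which works with calnexin and calreticulin on glycoproteins, was at 340.3, 483 and 611 CPM in cluster KO and at 215, 231 and 148 CPM in wildtype libraries (1.27, SE 0.22, edgeR adjusted p = 0.00396). Pdia6 was at 299.7, 349.7 and 443 CPM against 201, 197 and 149 CPM (0.997, SE 0.17, adjusted p = 0.00353). Pdia3 and Pdia6 held in all 13 alternatives, from 1.06 to 1.46 and from 0.83 to 1.11. Pdia3 rose while its partner Canx fell in the same libraries.

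Pdia4 was at 34.6, 49.5 and 61.2 CPM in cluster KO and at 25.8, 31.0 and 23.5 CPM in wildtype libraries (0.86, SE 0.21, edgeR adjusted p = 0.0158). P4hb, the abundant isomerase PDI, was at 277, 301 and 399 CPM against 233, 225 and 221 CPM (0.53, SE 0.14, adjusted p = 0.0203). Both of these calls missed the threshold without some single libraries, from either group, while the log2 fold changes stayed close. Pdia4 was lost without cluster KO 2 (0.84, edgeR adjusted p = 0.0584), wildtype 1 (0.83, 0.0515) or wildtype 3 (0.77, 0.072). P4hb was lost without cluster KO 2 (0.58, 0.0516), wildtype 1 (0.55, 0.0519), wildtype 2 (0.52, 0.0794) or wildtype 3 (0.51, 0.0748). It was also lost with the replicate block (0.51, 0.0697) and with length and GC correction (0.20, adjusted p = 0.175).

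Among the genes of ER-associated degradation, Herpud1 rose. This membrane scaffold gene of the degradation complex was at 126, 172 and 194 CPM in cluster KO and at 91.8, 95.2 and 83.2 CPM in wildtype libraries (log2 fold change 0.87, SE 0.16, edgeR adjusted p = 0.00501). It held in all 13 alternatives, from 0.59 to 1.01. Sel1l, the adaptor of the same ligase complex, was at 57.2, 61.4 and 61.3 CPM against 70.1, 85.7 and 79.4 CPM (-0.39, SE 0.13, adjusted p = 0.0482). Sel1l did not overlap between the groups, but it missed the threshold in 11 of 13 alternatives. Without cluster KO 1, 2 and 3 its adjusted p was 0.0624, 0.138 and 0.0643, without wildtype 1, 2 and 3 it was 0.0529, 0.189 and 0.122, and with length and GC correction the change was -0.07 (0.758). Edem1, which hands misfolded glycoproteins to degradation, had 39.2 to 43.4 CPM in cluster KO and 30.9 to 37.5 CPM in wildtype, without overlap. It did not pass (0.27, adjusted p = 0.179), and passed with length and GC correction (0.57, adjusted p = 0.0148).

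**Figure D3:**
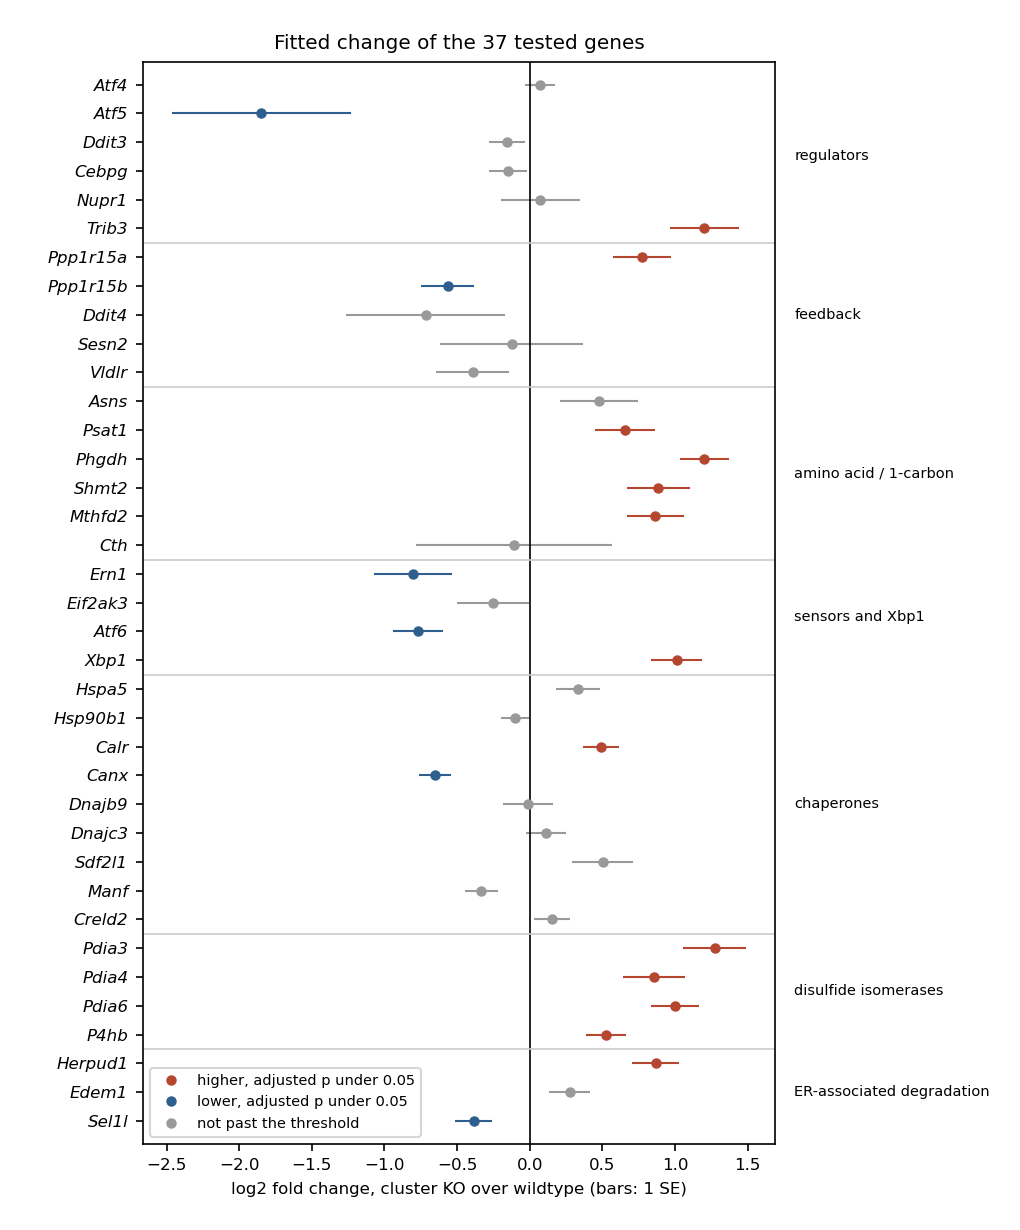
Fitted log2 fold change of cluster KO over wildtype with 1 SE for the 37 tested genes, grouped by role. The 13 genes past the threshold on the right include the 4 listed disulfide isomerases and 4 metabolic enzymes, and the 6 on the left include Ern1 and Atf6.

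Of the 7 ERSE genes printed above, Calr and Pdia6 were higher, Canx was lower, and Hspa5, Hsp90b1, Dnajc3 and Creld2 did not pass. Over all promoters searched, 37 genes carried the ERSE. Of the 18 tested, 2 were higher and 3 lower, that is 27.8%, against the 27.9% called among all tested genes. The 11 that are not members held 0 higher and 2 lower, Hnrnpa3 and Pan2. Of 8 tested genes with the ERSE-II, 3 were higher and 1 lower (50%), Herpud1 and the ER cochaperone gene Dnajb11 being among the higher ones. Of 312 tested genes with the C/EBP and ATF element, 54 were higher and 35 lower (28.5%), and of 107 with the UPRE core 23 were higher and 9 lower (29.9%).

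The called genes differed in size among the cluster KO libraries as well. In all 13 higher genes cluster KO 3 was the highest and cluster KO 1 the lowest of the 3, an order that 67.1% of all higher genes also had. Members that were not called showed it too: 9 of 18 had this order (50%), against 22.9% of all uncalled genes. Another 4 of the 18 had the reverse order (22.2%), against 25.3%. Of the 6 lower genes Ppp1r15b and Canx had the reverse order, as did 62.3% of all lower genes. The share of reads outside genes ran the other way, at 10.1, 8.59 and 7.29% in cluster KO 1, 2 and 3, and was 10.03, 10.5 and 11.1% in wildtype 1, 2 and 3. Genes of rRNA took 0.614, 0.383 and 0.251% of the counts in these cluster KO libraries and 0.998 to 1.44% in wildtype. Mitochondrial genes held a share of 1.79 ± 0.36% in cluster KO against 2.85 ± 0.19% in wildtype (SD, n = 3 libraries each). Reads that were not uniquely placed made up 13.98 ± 0.66% against 16.4 ± 0.35%, and ambiguous reads 2.77 ± 0.056% against 2.93 ± 0.015%. These 3 shares and that of rRNA genes separated the genotypes completely, with an exact two-sided permutation p of 0.1, the smallest that 3 against 3 allows, and reads outside genes had an exact permutation p of 0.2. The part of library quality in the calls was not tested.

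**Figure D4:**
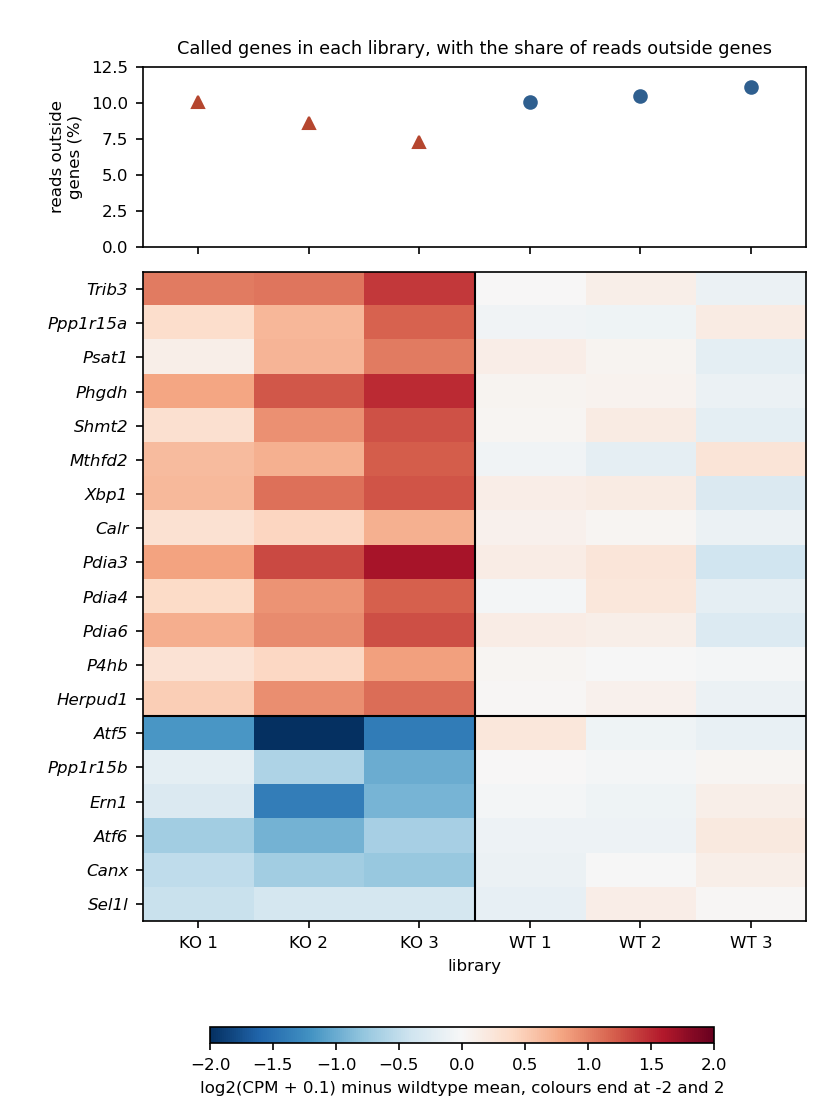
Top, percent of all reads that fell outside genes in each library. Bottom, log2(CPM + 0.1) of the 19 called genes minus the wildtype mean, by library. Within cluster KO the 13 higher genes are palest in library 1 and darkest in library 3, while the share of reads outside genes is 10.1, 8.59 and 7.29%.

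Lengths in this paragraph are of all annotated exons of a gene merged, which can far exceed a transcript. Asns has 2735 such bases against a median transcript of 908, and Manf 3524 against 545. The order of genes therefore depends on the length used. On the scale of CPM per kilobase of merged exon, wildtype libraries averaged 197 for Canx, 121 for Calr, 110.3 for Hsp90b1 and 91.4 for Hspa5, the 4 members with the highest levels there. Other genes of the chaperone list ran from 82.6 for Creld2 down to 12.98 for Dnajb9, beside the isomerase genes P4hb at 79.1 and Pdia3 at 63.03. The sensors stood far below, at 2.97 for Atf6, 2.40 for Ern1 and 2.35 for Eif2ak3, and their order does not exceed the spread between libraries for the last 2. In cluster KO the averages were 171 for Calr, 152 for Pdia3, 125 for Canx and 115 for Hspa5. Canx led in wildtype and Calr in cluster KO. Atf4 was at 66.3 in wildtype and 69.6 in cluster KO, above Asns at 49.4 and Ddit3 at 36.0 in wildtype. Atf5, Sesn2, Ddit4, Cth and Chac1 all averaged under 1 in wildtype and in cluster KO.

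Other genes of the pathways, 127 on 6 lists, were counted in the same way. Of 119 tested, 24 were higher and 23 lower (39.5%). Of all tested genes 27.9% were called, 15.9% higher and 12.1% lower. The called share was 43.8% for the further ATF4 targets, 50% for the eIF2 machinery and 47.1% for the translocon. For the further folding genes it was 39.1%, for the further degradation genes 30% and for the further stress regulators 23.1%. Of 32 tested further ATF4 targets, 8 rose and 6 fell, with a median log2 fold change of 0.36. Sars, a tRNA synthetase gene (0.90, SE 0.17), and Sqstm1, the autophagy receptor p62 (0.87, SE 0.16), rose. The mitochondrial folate enzyme gene Mthfd1l (-0.84, SE 0.14) and the tRNA exporter gene Xpot (-0.69, SE 0.12) fell, although Mthfd2 of the same folate pathway rose. The cystine transporter gene Slc7a11 rose by 1.61 (SE 0.38) and the arginine transporter gene Slc7a1 was at -0.88 (SE 0.23, edgeR adjusted p = 0.0182), both picked after their values were seen.

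Of 14 genes of the eIF2 machinery 4 rose and 3 fell, with a median of -0.0012. The higher calls came to 0 with the replicate block and to 1 without cluster KO 2, wildtype 2 or wildtype 3, and the lower calls to 1 with the block and without wildtype 2 or wildtype 3. Eif2s1, the alpha subunit that stress kinases phosphorylate, rose by 0.73 (SE 0.17), Eif2s3x, the X-linked gamma subunit, was at -1.01 (SE 0.11), and Eif2b1, part of the exchange factor eIF2B, rose by 0.69 (SE 0.17). Gcn1l1, an activator of the eIF2 kinase GCN2, fell (-0.76, SE 0.18). The other 3 eIF2 kinase genes did not pass: Eif2ak1 was at 0.19, Eif2ak2 at -0.30 and Eif2ak4 at -0.20, with edgeR adjusted p of 0.514, 0.184 and 0.515.

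Of 23 further ER folding genes 5 rose and 4 fell, with a median of -0.10. Dnajb11, a BiP cochaperone gene, rose by 0.75 (SE 0.15) beside Mzb1. Mogs, the glucosidase that starts glycan trimming (-0.71, SE 0.12), and the prolyl isomerase gene Fkbp11 (-0.78, SE 0.15) fell. Of 20 further degradation genes 4 rose and 2 fell, among them Edem2 (1.38, SE 0.23), Aup1 (1.33, SE 0.20) and Ube2j2 (0.60, SE 0.14), which all rose. Of 17 genes of the translocon and signal peptidase 1 rose and 7 fell, with a median of -0.14. Those with the smallest p were all lower: Sec61g (-0.93, SE 0.14), Sec61b (-0.80, SE 0.16), Spcs1 (-0.50, SE 0.11) and Ssr1 (-0.50, SE 0.12). Of 13 tested further stress regulators 2 rose and 1 fell: the transcription factor gene Creb3 (1.26, SE 0.25), the IRE1 adaptor gene Traf2 (0.61, SE 0.18) and the ER membrane protein gene Tmbim6 (-0.62, SE 0.13). Leaving out cluster KO 2, wildtype 2 or wildtype 3 brought the 47 calls on these lists to 20, 23 and 26. For the further ATF4 targets the 8 higher calls came to 14 without cluster KO 1, 4 without cluster KO 2, and 5 without wildtype 2 or wildtype 3, and the 6 lower calls to 3 without cluster KO 2. For the further folding genes the 5 higher calls came to 3 without cluster KO 2, cluster KO 3 or wildtype 1 and to 2 without wildtype 2 or wildtype 3, and the 4 lower calls to 2 without cluster KO 2 or wildtype 2. For the further degradation genes the 4 higher calls came to 2 without cluster KO 2 or wildtype 2, and the 2 lower calls to 0 without cluster KO 2 and 1 without any of the wildtype libraries. For the translocon the 7 lower calls came to 2 without cluster KO 2 and 3 without wildtype 2 or wildtype 3.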

How the data were processed

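RNA was counted in 6 mouse bone marrow libraries. HTSeq, TopHat2 and bcl2fastq appear in the submitters' processing notes without versions, beside the build mm10. The kit does not keep strand, per the labels' protocols. Counting mode and annotation release are, however, not given in the sources used here. Raw read counts per Ensembl gene, in 1 table, are what the authors deposited. The table's 5 HTSeq summary rows, 23.4 to 30.8% of all reads, entered neither library sizes nor tests. Positions and lengths came from GENCODE M21 (GRCm38), and 47310 of 47729 genes matched; promoters came from the RefSeq table.

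Groups were taken from the sample titles. Cluster KO was compared with wildtype in edgeR 4.0.16 (R 4.3.3) with TMM, filterByExpr (minimum count 10), a quasi-likelihood fit (robust) on genotype alone, and Benjamini-Hochberg adjustment over 15686 genes at 0.05. The SE is the fitted coefficient over the square root of F. The fit was also run on simulated counts with 200 changed genes. As 4382 genes were called in the real libraries, that run cannot speak for these calls. Alternatives used limma 3.58.1, DESeq2 1.42.0, other normalizations, no filter, length and GC offsets, a replicate block and 5 of 6 libraries. Limits and intervals cover counting error only. Same-numbered libraries did not deviate together (correlations -0.12, 0.02 and -0.09). Between libraries of the same genotype the counts varied beyond sampling noise (chi-square per degree of freedom 11.3 to 64.2).

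The members and lists were chosen with earlier results of these data known. Values in every library were to be printed for members past the threshold and for Atf4, Ddit3, Xbp1, Hspa5, Ern1, Eif2ak3 and Atf6, and from each wider list up to 4 called genes with the smallest p, of which 1 is not reported here.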

Additional observations from a re-analysis of the deposited data

How the results depend on the processing

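Of the 19 called members, 7 (Trib3, Phgdh, Xbp1, Canx, Pdia3, Pdia6 and Herpud1) kept their call and direction in all 13 alternatives, and 5 of the 18 others kept their direction and stayed uncalled throughout. No called member changed sign in any alternative. The replicate block, used although the numbers were not seen to pair the libraries, gave 1331 genes higher and 865 lower, 0 Atf4 arm and 2 ER arm members lower and 23 calls on the wider lists. The Atf4 arm had 1 lower member with no filter and with length and GC trends removed. With 1 library left out, genes higher ran from 1258 to 3151 and genes lower from 742 to 2579. The same ranges were 3 to 7 and 0 to 2 for Atf4 arm members higher and lower, 4 to 8 and 1 to 4 for ER arm members, and 20 to 62 for the wider lists. Signs reversed, among genes that passed in no setting, with upper-quartile factors for Atf4 (-0.036) and Nupr1 (-0.011). They also reversed for Nupr1 with limma voom (-0.0081), the replicate block (-0.0049) and without cluster KO 1 (-0.29). With length and GC trends removed Atf4 was at -0.23, Nupr1 at -0.026 and Creld2 at -0.18. With no filter Dnajb9 was at 0.014, and without cluster KO 1 or wildtype 2 at 0.11 and 0.03. Sesn2 was at 0.17, 0.0063 and 0.09 without cluster KO 1, cluster KO 2 or wildtype 3. Cth was at 0.21, 0.21, 0.06 and 0.12 without cluster KO 1, cluster KO 3, wildtype 1 or wildtype 3, and Dnajc3 at -0.019 without wildtype 3. Without 1 library the ranges were -0.29 to 0.33 for Nupr1, -0.69 to 0.17 for Sesn2, -1.09 to 0.21 for Cth, -0.15 to 0.11 for Dnajb9 and -0.019 to 0.19 for Dnajc3. The causes were not tested. Depth limits Atf5, Ddit4, Sesn2, Cth and Chac1, which had 64 counts or fewer in every library.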
